A study of Homo sapiens with 3 samples.

Results

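The genes that write, maintain and erase DNA methylation were examined for binding of their RNA by MATR3, a nuclear RNA- and DNA-binding protein of the nuclear matrix. The members were 7 genes: UHRF1, DNMT1, DNMT3A, DNMT3B, TET1, TET2 and TET3. They were chosen by name, and a site belonged to a member when the authors' annotation gave it that gene's name. This selected 435 of the 388807 clusters in the tables, with 5404 reads. The study made PAR-CLIP libraries with an antibody against MATR3 from HEK293 cells, a human cell line of embryonic kidney origin that is widely used as a model and is not a kidney tissue. All 3 samples were biological replicates of untreated wild-type cells, so there was 1 group without a control library, and every value below is a replicate value or a difference taken within replicates. In PAR-CLIP, a crosslinking and immunoprecipitation method, cells are given a photoreactive uridine, and the uridines that crosslink to the protein are read as T-to-C changes. A cluster is a group of overlapping reads with such changes, called separately in each replicate. The tables hold no expression values, so the cell line's label was not checked against marker genes.

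DNA methylation is copied after replication by DNMT1, which UHRF1 brings to hemimethylated sites, while DNMT3A and DNMT3B place methyl groups on unmethylated DNA. TET1, TET2 and TET3 oxidise methylcytosine, the first step of its removal by dilution or base excision repair. MATR3 is best known for binding long introns and regulating splicing of the transcripts that carry them, and it prefers pyrimidine-rich RNA with the letters AUCUU.

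The sites that recurred in every replicate are shown first, because they are the sites for which the replicates bear on each other. A locus is the union of same-strand clusters joined by overlaps of 1 nt or more. Only 6 loci of the 7 genes held clusters from all 3 replicates, 4 in TET3, 1 in DNMT1 and 1 in TET2. The 5 shown here are written 5′ to 3′ on the transcript strand from hg38, with the bases covered by clusters of at least 2 replicates in capitals.
DNMT1 intron 40, chr19:10134037-10134104, minus strand: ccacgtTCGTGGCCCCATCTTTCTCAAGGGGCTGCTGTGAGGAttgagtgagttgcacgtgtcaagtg
TET2 intron 1, chr4:105147688-105147768, plus strand: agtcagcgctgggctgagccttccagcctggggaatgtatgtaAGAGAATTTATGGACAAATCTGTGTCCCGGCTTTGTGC
TET3 intron 3, chr2:74006085-74006252, plus strand: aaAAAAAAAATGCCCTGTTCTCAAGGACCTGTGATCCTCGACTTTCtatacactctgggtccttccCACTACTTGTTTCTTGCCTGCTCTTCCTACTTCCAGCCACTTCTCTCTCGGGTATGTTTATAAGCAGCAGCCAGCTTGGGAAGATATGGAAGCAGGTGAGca
TET3 intron 3, chr2:74019300-74019506, plus strand: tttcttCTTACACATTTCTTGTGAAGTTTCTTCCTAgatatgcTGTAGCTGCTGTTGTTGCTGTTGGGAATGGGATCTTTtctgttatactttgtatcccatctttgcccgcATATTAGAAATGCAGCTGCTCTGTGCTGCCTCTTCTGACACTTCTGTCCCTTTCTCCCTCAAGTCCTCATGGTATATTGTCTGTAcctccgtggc
TET3 intron 3, chr2:74037673-74037847, plus strand: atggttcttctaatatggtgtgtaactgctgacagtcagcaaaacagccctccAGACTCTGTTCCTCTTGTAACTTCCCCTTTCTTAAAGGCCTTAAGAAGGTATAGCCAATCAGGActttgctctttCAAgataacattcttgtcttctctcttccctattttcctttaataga

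In the DNMT1 locus the clusters held 14, 13 and 5 reads in replicates 1, 2 and 3, and 35 bases were covered in all 3. Those bases include ATCTT, the DNA form of the letters that MATR3 prefers. In the TET2 locus the reads were 14, 8 and 8, and 30 bases were covered in all 3 replicates. The 4 TET3 loci had no base in common to all 3 replicates, and were joined by overlaps between pairs. The TET3 locus at chr2:74019300-74019506 was the most heavily covered of the 6, with 21, 54 and 36 reads, and holds ATCTT in 2 places. The TET3 locus at chr2:74006085-74006252 held 15, 54 and 17 reads. The TET3 locus at chr2:74037673-74037847 held 33, 29 and 8 reads. In the 5 loci shown, no stretch of 20 letters occurred more than 2 times on its own chromosome, counting both strands.

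The clusters with most reads in a replicate are the other sites on which the gene totals rest, and a selection is shown here in the same way with any ATCTT in capitals. The DNMT1 lines are the leading cluster of each replicate in turn. The remaining lines are the leading cluster of replicate 3 for UHRF1 and TET3, of replicate 1 for DNMT3B and TET1, and of replicate 2 for TET2 and DNMT3A.
DNMT1 intron 17, replicate 1, chr19:10158179-10158245, minus strand: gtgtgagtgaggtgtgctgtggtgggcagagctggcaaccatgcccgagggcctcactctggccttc
DNMT1 intron 17, replicate 2, chr19:10158480-10158561, minus strand: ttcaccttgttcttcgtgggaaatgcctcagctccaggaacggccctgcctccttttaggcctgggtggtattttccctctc
DNMT1 intron 17, replicate 3, chr19:10158043-10158176, minus strand: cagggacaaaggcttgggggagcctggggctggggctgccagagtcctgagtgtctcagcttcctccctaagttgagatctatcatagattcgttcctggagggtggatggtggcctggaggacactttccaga
UHRF1 intron 15, replicate 3, chr19:4955502-4955715, plus strand: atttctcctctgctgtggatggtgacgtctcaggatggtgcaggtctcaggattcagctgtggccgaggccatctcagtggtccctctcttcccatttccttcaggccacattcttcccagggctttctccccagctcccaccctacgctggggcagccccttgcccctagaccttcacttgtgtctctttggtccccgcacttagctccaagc
DNMT3A intron 17, replicate 2, chr2:25241172-25241199, minus strand: tagagagaggttcctgtcctcccaatac
DNMT3B intron 21, replicate 1, chr20:32806046-32806109, plus strand: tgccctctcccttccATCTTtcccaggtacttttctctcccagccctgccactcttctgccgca
TET1 intron 2, replicate 1, chr10:68579425-68579518, plus strand: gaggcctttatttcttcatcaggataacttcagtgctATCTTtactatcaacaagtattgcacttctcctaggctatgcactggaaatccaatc
TET2 intron 1, replicate 2, chr4:105167835-105167880, plus strand: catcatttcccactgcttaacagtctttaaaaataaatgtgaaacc
TET3 intron 3, replicate 3, chr2:74008208-74008375, plus strand: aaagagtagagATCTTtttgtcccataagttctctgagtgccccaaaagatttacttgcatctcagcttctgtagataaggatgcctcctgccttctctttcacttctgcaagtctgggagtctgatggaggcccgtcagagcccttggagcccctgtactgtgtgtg

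The UHRF1 cluster held 121 reads, 45 of them distinct, and was the most heavily read member cluster that led a replicate. The TET3 cluster held 74 reads, 24 of them distinct. The DNMT1 clusters held 27, 46 and 60 reads in replicates 1, 2 and 3. They lie within the same intron but none of the 3 overlapped a cluster of another replicate. The TET1 cluster held 33 reads, the TET2 cluster 16, the DNMT3B cluster 14 and the DNMT3A cluster 8. Each of the last 3 tied in reads with at least 1 other cluster of its replicate, and the tied cluster of lowest coordinate is shown. The others lay in TET2 intron 2, DNMT3B intron 22 and DNMT3A intron 2. The reads of the DNMT3A cluster were copies of 1 distinct read. DNMT3A was led in replicate 1 by a 3′UTR cluster of 11 reads and in replicate 3 by 8 reads in intron 6. DNMT3B was led in replicate 2 by 14 reads in intron 21 and in replicate 3 by 15 reads in intron 4. TET1 was led in replicate 3 by 15 reads in intron 1, and TET3 in replicate 1 by 56 reads in intron 2 and in replicate 2 by 54 reads in intron 3. Reads carried no molecular identifiers, so a read count can include copies of a molecule.

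The tables list only clusters with at least 4 reads, 4 T-to-C reads, 2 conversion locations and 20 nt, so weaker sites were not seen. The 3 replicates listed between 124040 and 133088 clusters each, with 1649124, 1506682 and 1532602 reads, and the depth of the whole libraries is not known here. Members took 136, 162 and 137 clusters, or 145 on average, and 0.110%, 0.150% and 0.139% of the reads in gene-annotated clusters. Transcript abundance was not measured in these files, so a gene with much RNA and a gene with much binding per RNA cannot be told apart.

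All 7 members had a cluster in all 3 replicates. The background is 65.7% of the 13542 gene names with any cluster, and 56.7% of the 4995 protein-coding genes whose transcripts span 40 to 140 kb, a range that holds every member. With at least 3 distinct reads required per cluster, 6 members had a cluster in all 3 replicates, and with at least 3 conversion locations 5 did. The background shares are for all listed clusters and were not recomputed at these settings.

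UHRF1, the reader of hemimethylated DNA that recruits DNMT1, showed 9, 13 and 12 clusters (replicates 1, 2 and 3) and 128, 189 and 226 reads. DNMT1, the maintenance methyltransferase, had 18, 32 and 28 clusters with 193, 369 and 363 reads. For both genes replicate 1 was the lowest in clusters and in reads. DNMT3A, a de novo methyltransferase, had 3, 5 and 2 clusters with 23, 34 and 14 reads. DNMT3B, the other de novo methyltransferase, had 7, 8 and 2 clusters with 70, 70 and 22 reads. Both de novo enzymes were lowest in replicate 3, and the counts of DNMT3A lay below those of UHRF1 and DNMT1 in every replicate. TET1 had 13, 18 and 9 clusters with 173, 181 and 85 reads. TET2 had 23, 19 and 18 clusters with 207, 176 and 143 reads. TET3 had 63, 67 and 66 clusters with 786, 950 and 1002 reads. TET3 therefore stood above every other member in every replicate, with no overlap of the ranges, and it held 45.1% of member clusters and 50.7% of member reads.

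**Figure D1:**
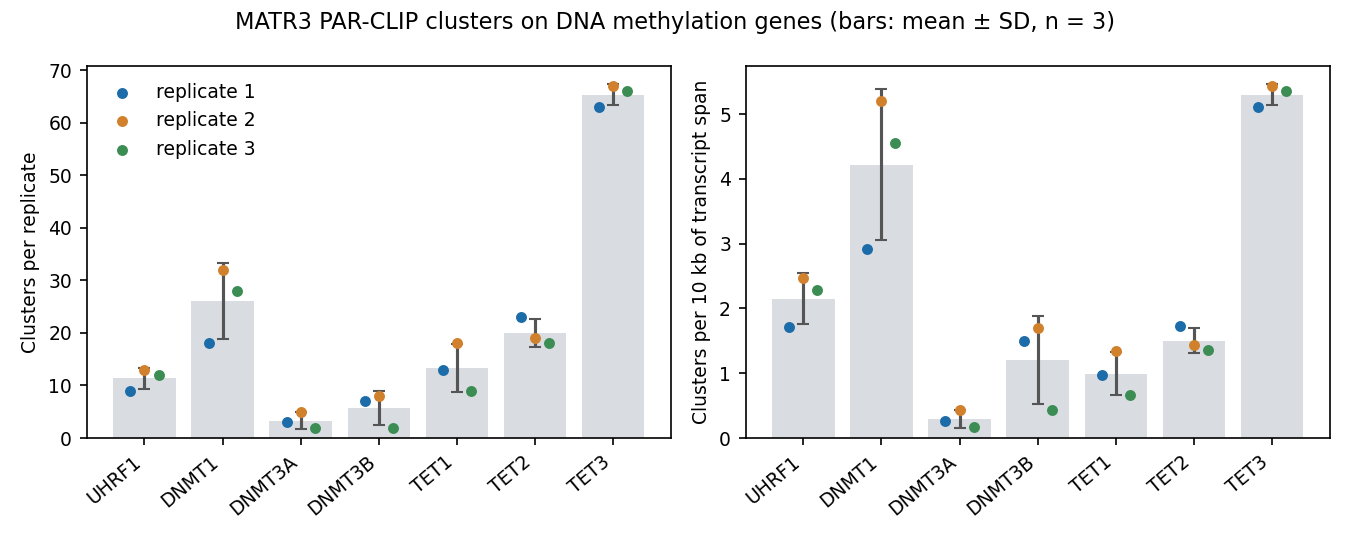
Clusters per replicate (left) and clusters per 10 kb of transcript span (right) for each gene, with points for replicates 1 to 3 and bars for the mean ± SD (n = 3). TET3 has 63 to 67 clusters and lies above the other genes on the left, whereas on the right replicate 2 of DNMT1 comes close to TET3.

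Among all 13542 gene names with a cluster, TET3 ranked 119 by mean clusters, with 65.3 ± 2.08 clusters (SD, n = 3). DNMT1 ranked 1012 with 26.0 ± 7.21, TET2 ranked 1552 with 20 ± 2.65, and TET1 ranked 2569 with 13.3 ± 4.51. UHRF1 ranked 3047 with 11.3 ± 2.08, DNMT3B ranked 5196 with 5.67 ± 3.21, and DNMT3A ranked 6738 with 3.33 ± 1.53. Scaled to 1000000 reads in gene-annotated clusters, the reads were 674 ± 109 for TET3, 229 ± 82.0 for DNMT1 and 134 ± 40.8 for UHRF1. They were 129 ± 19.4 for TET2, 107 ± 39.0 for TET1, 39.6 ± 20.1 for DNMT3B and 17.5 ± 7.83 for DNMT3A. By either measure TET3 came first and the 2 de novo methyltransferases came last.

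Because longer transcripts can hold more clusters, levels were compared between genes per 10 kb of the canonical GENCODE transcript. TET3 spans 123 kb of chr2:73984910-74108176 and had 5.30 ± 0.169 clusters per 10 kb (SD, n = 3). DNMT1 spans 61.6 kb of chr19:10133346-10194953 and had 4.22 ± 1.17. UHRF1 spans 52.7 kb of chr19:4909501-4962154 and had 2.15 ± 0.395. These 3 genes lay above 1.56, the median of the 11157 protein-coding genes with a cluster, whose quartiles were 0.495 and 3.78. TET2 spans 133 kb of chr4:105146876-105279803 and had 1.5 ± 0.199 clusters per 10 kb. DNMT3B spans 47.0 kb of chr20:32762385-32809356 and had 1.21 ± 0.684. TET1 spans 134 kb of chr10:68560337-68694487 and had 0.994 ± 0.336. DNMT3A spans 114 kb of chr2:25227874-25341925 and had 0.292 ± 0.134, below the lower quartile. The 3 TET genes thus have spans of similar length, and TET3 exceeded TET1 and TET2 in every replicate on this scale.

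The order by clusters per 10 kb was compared between the 6 neighbouring pairs, within replicates, with an exact two-sided sign-flip permutation test whose smallest p with 3 replicates is 0.25. No pair could therefore pass a threshold of 0.05. TET3 exceeded DNMT1 in 3 of 3 replicates by 1.08 ± 1.0 clusters per 10 kb (SD, n = 3, exact p = 0.25, 0.5 after Benjamini-Hochberg adjustment over the 6 pairs). DNMT1 exceeded UHRF1 in 3 of 3 replicates by 2.07 ± 0.776 (exact p = 0.25, adjusted 0.5). UHRF1 exceeded TET2 in 2 of 3 replicates by 0.648 ± 0.582 (exact p = 0.5, adjusted 0.6). TET2 and DNMT3B differed by 0.298 ± 0.603, and DNMT3B and TET1 by 0.212 ± 0.404, less than the spread between replicates. TET1 exceeded DNMT3A in 3 of 3 replicates by 0.702 ± 0.204 (exact p = 0.25, adjusted 0.5). The order thus held in every replicate for 3 of the 6 pairs. Without replicate 3 the genes were ordered anew, and 5 of the 6 pairs of that new order held in both remaining replicates. DNMT3B moved above TET2 without replicate 3, and also when at least 3 distinct reads were required per cluster.

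Nearly all member clusters were intronic. The authors' annotation classed 397 of 435 (91.3%) as intron, against a background of 83.5% over the 338071 clusters of all nuclear genes. By replicate the share was 92.6%, 89.5% and 92.0%, or 91.4% ± 1.65 (SD, n = 3), and 83.5% ± 0.420 in the other genes. The members were higher in 3 of 3 replicates, by 7.90 ± 1.51 percentage points (exact two-sided permutation p = 0.25, the smallest possible; 0.5 after adjustment over 4 such comparisons). The difference was 7.94 ± 2.10 without TET3. The other genes were of any length, and the intron share in genes of similar span was not computed. DNMT1 had 75 intron clusters of 78, DNMT3B 16 of 17, TET1 37 of 40, TET3 178 of 196, DNMT3A 9 of 10, TET2 53 of 60 and UHRF1 29 of 34.

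The other classes were few and differed between genes. TET3 had 16 clusters classed as 3′UTR, 3, 10 and 3 in replicates 1, 2 and 3, and 2 coding clusters. Replicate 2 was the high one. TET2 had 7 clusters classed as 3′UTR, 3, 1 and 3 by replicate, and all 7 lie in intron 3 of the canonical transcript rather than in its last exon. The bases of this stretch that recurred, in replicates 2 and 3 with 11 and 12 reads, are shown because the class and the canonical transcript place them differently.
TET2 intron 3, shared bases of chr4:105239342-105239410, plus strand: AGTAGGCTGTTTAGTACAGCC
UHRF1 had 5 clusters classed as 5′UTR, 1, 1 and 3 by replicate, and all 5 lie in intron 1 of the canonical transcript. DNMT1 had 1 coding, 1 start-codon and 1 coding-intron cluster. TET1 had 2 coding clusters and 1 in the 3′UTR, DNMT3A had 1 in the 3′UTR, and DNMT3B had 1 coding-intron cluster. The coding clusters of TET1, both in replicate 2, include the most heavily read TET1 cluster of that replicate, with 24 reads in exon 2 at chr10:68573854-68573926. All 397 clusters classed as intron also lie in introns of the canonical transcripts.

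**Figure D2:**
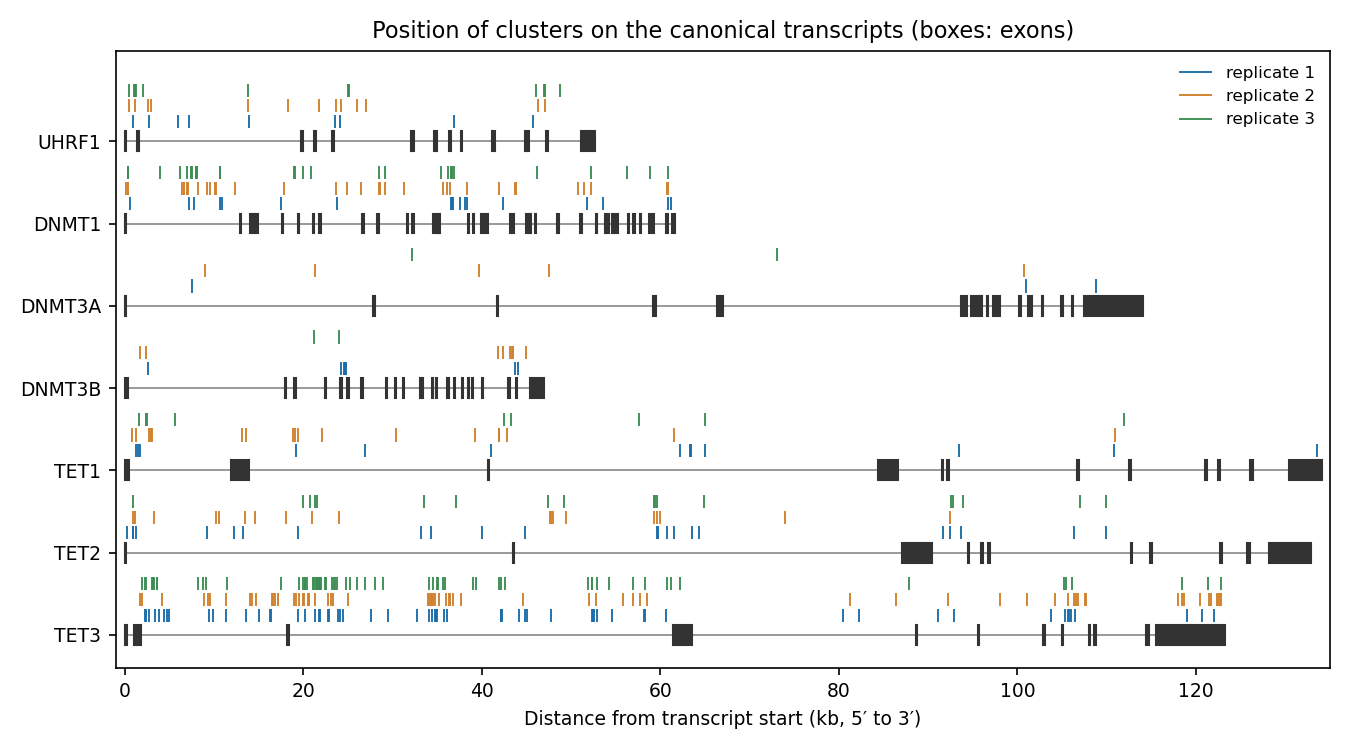
Position of every cluster on the 7 canonical transcripts, with distance from the transcript start in kb on the x axis, exons as boxes and a tick per cluster for replicates 1, 2 and 3. The TET3 ticks are dense between the first exons and the long internal exon, and sparse in the intron after it.

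Within TET3 the clusters were concentrated in a pair of introns. Intron 3, 43.1 kb long, had 35, 31 and 45 clusters in replicates 1, 2 and 3, and intron 2, 16.4 kb long, had 15, 13 and 13. Intron 4, 25.1 kb long, had 2, 2 and 1. Every replicate of introns 2 and 3 lay above every replicate of intron 4. Introns 2 and 3 together held 152 clusters, 77.6% of those of TET3, in 48.3% of its span, along with 83.3% of its reads. They also held 21 of the 24 TET3 loci found in at least 2 replicates. Per 10 kb the levels were 8.33 ± 0.704 in intron 2, 8.58 ± 1.67 in intron 3 and 0.663 ± 0.230 in intron 4 (SD, n = 3). Intron 3 exceeded intron 4 by 7.92 ± 1.89 in 3 of 3 replicates (exact two-sided permutation p = 0.25, the smallest possible). These introns were compared after their counts were seen. Intron 8, only 2.85 kb long, had 5, 6 and 3 clusters, which is 16.4 ± 5.35 per 10 kb, the highest level of a TET3 intron.

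**Figure D3:**
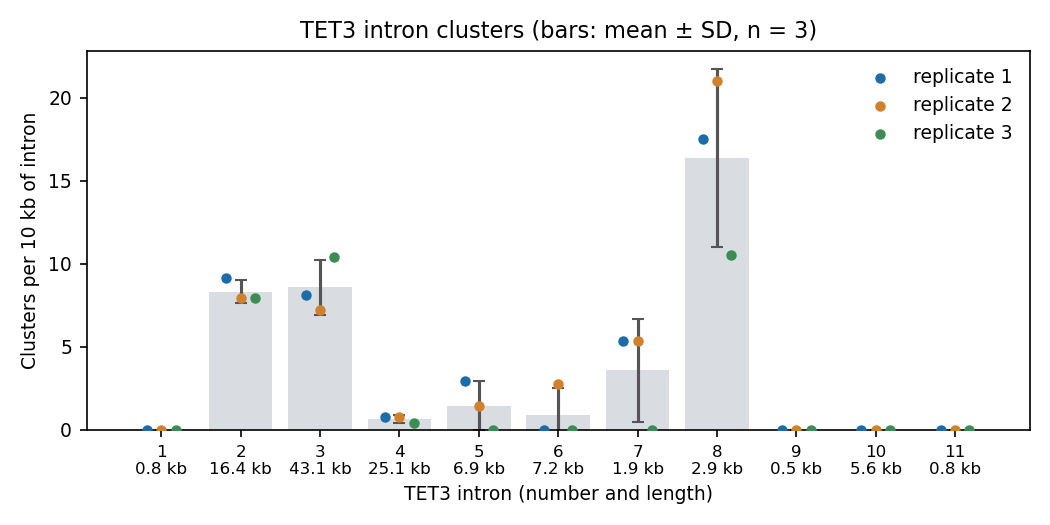
Clusters per 10 kb in each TET3 intron, numbered from the 5′ end with its length below, with points for replicates 1 to 3 and bars for the mean ± SD (n = 3). Introns 2 and 3 stand at 8.33 and 8.58 clusters per 10 kb, and intron 4, whose length lies between theirs, at 0.663.

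In DNMT1 the clusters were spread over 15 of 40 introns. The long first intron, 12.7 kb, had 5, 11 and 12 clusters, with replicate 1 the lowest. Intron 17, 3.15 kb long, had 6, 4 and 5 clusters and 250 reads, or 15.9 ± 3.18 clusters per 10 kb, and it supplied the leading DNMT1 cluster of each replicate shown above. The last intron, intron 40, is 0.515 kb long and had 2, 2 and 1 clusters, including the locus found in all 3 replicates.

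In UHRF1, 7 of 16 introns had a cluster. Intron 2 had 4, 4 and 2 clusters, intron 5 had 2, 4 and 2, and intron 1 had 1, 2 and 4. Intron 15, 1.89 kb long, had 1, 2 and 3 clusters and 272 of the 543 UHRF1 reads, and it held the leading cluster of each replicate, with 53, 45 and 121 reads.

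The de novo methyltransferases had scattered sites. DNMT3A had a cluster in 5 of 22 introns, and DNMT3B in 7 of 22. DNMT3B intron 5 had 3 clusters in replicate 1 and none in the others, and intron 21 had 1, 3 and 0. DNMT3A intron 1 had 1, 2 and 0. Of the DNMT3A clusters, 8 of 10 rested on 2 or fewer distinct reads, against 46 of 196 for TET3 and 18 of 78 for DNMT1.

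In TET1 and TET2 most clusters lay in the long introns near the 5′ end. TET1 introns 1, 2 and 3 had 3, 5 and 4 clusters, 2, 6 and 0, and 5, 4 and 4 in replicates 1, 2 and 3. TET2 introns 1 and 2 had 11, 10 and 7 clusters and 7, 8 and 6. These introns are also much of each span. TET1 introns 1, 2 and 3 held 30%, 20% and 32.5% of its clusters in 8.55%, 19.9% and 32.5% of its span. TET2 introns 1 and 2 held 46.7% and 35% of its clusters, in 32.6% of its span each. The leading TET2 cluster lay in intron 1 in replicates 1 and 3, with 16 and 13 reads. In replicate 2 a cluster of intron 1 had 16 reads, and so did clusters of intron 2 at chr4:105194492-105194598 and chr4:105220775-105220875. Of the TET2 clusters, 29 of 60 rested on 2 or fewer distinct reads.

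Member clusters lay toward the 5′ end more often than those of other genes, a measure chosen after seeing the data. The first 50% of the transcript span held 69.1%, 70.4% and 78.1% of member clusters, or 72.5% ± 4.87 (SD, n = 3), against 58.2% ± 0.791 in other protein-coding genes. The difference was 14.4 ± 5.47 percentage points, in the same direction in 3 of 3 replicates (exact two-sided permutation p = 0.25, the smallest possible). Without TET3, with TET1 and TET2 still included, it was 9.13 ± 6.09. TET1 had 35 of 40 clusters there (87.5%), TET2 48 of 60 (80%), TET3 153 of 196 (78.1%), UHRF1 25 of 34, DNMT3A 6 of 10 and DNMT1 44 of 78 (56.4%). The 3 TET genes thus had the highest shares. Among the remaining members, UHRF1 (73.5%) and DNMT3A (60%) lay above the share of other genes. DNMT1 lay slightly below it, and DNMT3B lay lowest with 4 of 17 (23.5%). The difference without all 3 TET genes was not computed, so the excess of the set is not shown apart from them. Among the 581 genes with at least 100 clusters the median was 57.7%, with quartiles of 49.4% and 69.9%, and 86.9% of them lay below TET3.

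Most member sites in introns were centred more than 200 nt from an exon, as were those of other genes. Distances were taken for the 410 member clusters centred in an intron of the canonical transcripts, whatever their class. Of these, 7.79% ± 0.280 had their centre within 200 nt of an exon (SD, n = 3), and 7.25% ± 0.226 did in other genes. By gene these were 18 of 76 in DNMT1, 5 of 16 in DNMT3B and 5 of 34 in UHRF1. The TET genes had 3 of 178 (TET3), 1 of 60 (TET2) and 0 of 37 (TET1), and DNMT3A had 0 of 9. The median distance was 2865 ± 425 nt in members and 2445 ± 149 nt in other genes, with members higher in 2 of 3 replicates and a spread as wide as the gap. The median ran from 355 nt in DNMT3B, 706 nt in UHRF1 and 770 nt in DNMT1 to 4409 nt in TET3, 5767 nt in DNMT3A and 9594 nt in TET2, with TET1 at 2270 nt.

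Recurrence of exact sites was low and near that of other genes. A member cluster overlapped a cluster of another replicate in 23.5%, 17.3% and 27.0% of cases, or 22.6% ± 4.93 (SD, n = 3), against 21.7% ± 0.670 in other genes and a background of 21.7% over all clusters. The difference was 0.872 ± 4.34 percentage points and positive in 2 of 3 replicates (exact two-sided permutation p = 0.75). It turned to -3.43 without replicate 3 and to -4.17 without TET3. Of the 381 member loci, 338 were found in 1 replicate, 37 in 2 and 6 in 3. The last is 1.57%, beside a background of 1.20%, and those in 2 or 3 made 11.3% of member loci and 11.2% of the loci of other genes.

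The members differed among themselves in recurrence. TET3 had 56 of 196 clusters overlapped in another replicate (28.6%), with 33.3%, 22.4% and 30.3% in replicates 1, 2 and 3. UHRF1 had 10 of 34 (29.4%), with 11.1%, 38.5% and 33.3%. DNMT1 had 18 of 78, with 27.8%, 15.6% and 28.6%. TET2 had 9 of 60 and TET1 had 4 of 40. None of the 10 DNMT3A or 17 DNMT3B clusters overlapped a cluster of another replicate. So every gene had clusters in every replicate, but the few listed for DNMT3A and DNMT3B were at different places each time. Replicate 3 listed only 2 for each of these genes. The differences between genes were not tested.

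**Figure D4:**
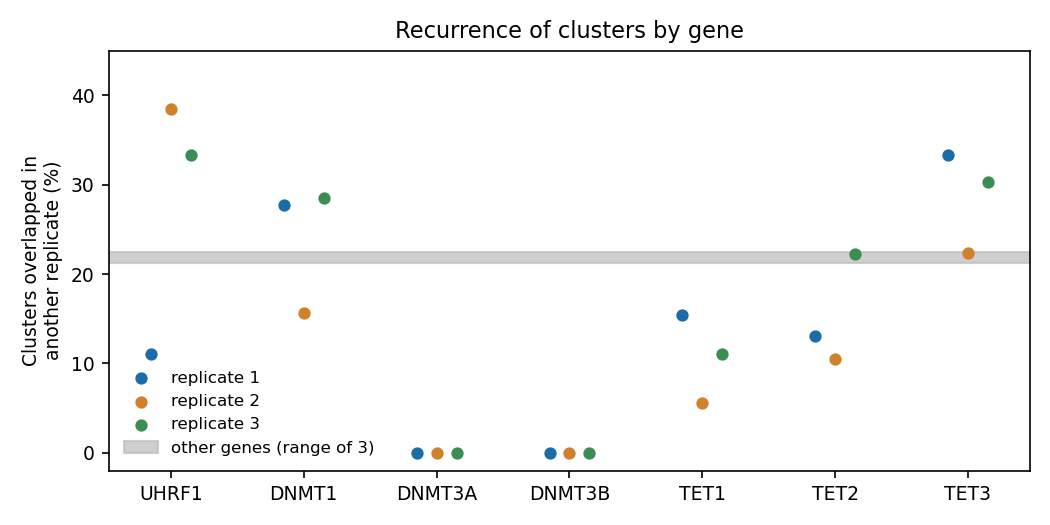
Percentage of a gene's clusters that overlapped a cluster of another replicate, with a point per replicate, and a grey band for the range of the 3 replicates in other genes. TET3 lies at 22.4% to 33.3%, DNMT3A and DNMT3B lie at 0, and the band sits around 21.7%.

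The 43 loci found in at least 2 replicates included 24 in TET3, and 40 of the 43 were classed as intron. ATCTT was present in 9 of them. Neither share was computed for the recurring loci of other genes. A locus is a union of clusters and can be longer than 1 cluster, so the ATCTT share of single clusters is not its background. In each of the 43 the median stretch of 20 letters was found at a single place on its chromosome, but 2 of them, 1 in TET3 and 1 in DNMT1, held stretches with more than 10 copies there. The TET3 locus of this pair is among the 6 found in all 3 replicates. In the DNMT1 locus, at chr19:10187945-10188000, 33 of 37 stretches were at a single place and the most frequent had 179 copies. Whether reads of these stretches came from elsewhere was not tested.

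Conversion was close to that of other genes. T-to-C events made up 11.4%, 12.3% and 11.7% of the T positions read in member clusters, or 11.8% ± 0.469 (SD, n = 3), against 11.0% ± 0.368 in other genes. Members were higher in 3 of 3 replicates by 0.787 ± 0.334 percentage points (exact two-sided permutation p = 0.25, the smallest possible; adjusted 0.5). By gene the level was 13.6% ± 1.12 in UHRF1, 11.9% ± 0.609 in DNMT1, 12.8% ± 1.97 in DNMT3B, 11.1% ± 0.720 in TET1, 11.6% ± 0.759 in TET2 and 11.4% ± 0.486 in TET3. DNMT3A was highest at 17.4% ± 5.05, on 71 reads. A cluster with few reads still needed 4 T-to-C reads to be listed.

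ATCTT, searched on the transcript strand only and as those letters alone, was present in 12.5%, 6.79% and 11.7% of member clusters, or 10.3% ± 3.09 (SD, n = 3). The background over all clusters is 9.34%, and other genes stood at 9.34% ± 0.392. The difference of 0.985 ± 2.79 percentage points was smaller than the spread between replicates and positive in 2 of 3 (exact two-sided permutation p = 0.5, adjusted 0.667). The clusters with the letters numbered 20 in TET3, 9 in DNMT1, 6 in TET2, 4 in TET1, 2 each in DNMT3B and UHRF1, and 1 in DNMT3A. Per kb of cluster sequence the letters occurred 1.94 times in TET3, against 1.33 times over its whole transcript span. The corresponding values were 2.33 and 1.07 in DNMT1, 2.77 and 2.04 in TET2 and 2.34 and 1.48 in TET1. They were 3.12 and 0.894 in DNMT3B and 2.93 and 0.684 in DNMT3A, on 2 sites and 1 site within clusters. UHRF1 went the other way with 0.952 in clusters and 1.16 over its span. These are counts of letters and do not show a contact. Clusters of the 3 replicates were pooled, so a place found in several replicates was counted each time. The ATCTT of the DNMT1 locus in intron 40 was counted in all 3. Clusters and spans were not compared in this way in other genes.

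Clusters were richer in G and C than the transcripts that held them in 6 of 7 genes. The GC content of clusters was 49.9% against 42.2% of the span in TET1, 41.6% against 36.0% in TET2 and 51.0% against 47.0% in TET3. It was 55.8% against 50.3% in DNMT1, 58.0% against 53.2% in UHRF1 and 51.2% against 49.4% in DNMT3B. DNMT3A differed little, with 53.1% against 53.3%. The share of C and T together was higher in clusters than in the span in all 7 genes. Clusters and spans were not compared in this way in other genes, so neither pattern is shown to be particular to the members. In clusters it ran from 53.1% (span 49.3%) in DNMT3A to 60.4% (span 51.7%) in DNMT3B. By replicate it was 55.7% ± 1.47 in member clusters and 57.2% ± 0.856 in those of other genes (SD, n = 3). Member clusters held 29.2% ± 1.13 T (SD, n = 3) and those of other genes 31.3% ± 0.893. Their median length, 39.2 ± 1.26 nt, was close to the 38.7 ± 1.53 nt of other genes.

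The wider pathway was described by 26 genes that supply methyl groups, read methylation, excise oxidised bases or partner TET proteins. Every replicate held a cluster for 19 of them and no replicate did for 4. Of the 22 with any cluster, the 19 are 86.4%, beside the background of 65.7% over gene names with any cluster. Among maintenance partners and methyl suppliers 6 of 7 had a cluster in all 3 replicates, among readers 7 of 7, among excision genes 3 of 5 and among TET partners and cofactor genes 3 of 7. The median was 2.66 clusters per 10 kb over the 26 genes and 1.5 over the 7 members. The readers had the highest group median at 5.10. DNMT3L, CXXC4, IDH2 and GADD45A were the 4 without a cluster. Ranked by scaled reads per kb, the leading gene was MAT2A, which makes the methyl donor S-adenosylmethionine, with 5, 6 and 5 clusters, 139 ± 68.8 scaled reads (SD, n = 3) and 22.7 scaled reads per kb. APEX1, an endonuclease of base excision repair, had 1, 7 and 5 clusters, 37.7 ± 33.1 scaled reads and 14.8 per kb. MAT2A spans 6.11 kb and APEX1 2.54 kb, less than any member. Of their clusters, 2 of 16 and 6 of 13 were classed as intron.

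Other genes with nearly the same scaled reads in the 3 replicates were found by distance on the log2(scaled reads + 1) scale, among 8902 genes with a cluster in all 3. The nearest was FLCN to DNMT1, at a distance of 0.077, and THOC2 to TET3, at 0.098. It was KIF18A to TET1 (0.056), GLCCI1 to TET2 (0.072), GFM1 to UHRF1 (0.095), C14orf132 to DNMT3B (0.10) and VASP to DNMT3A (0.10). With 3 values per gene such likeness is common. Between 192 genes for TET3 and 1217 for TET2 lay within a distance of 1.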

How the data were processed

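MATR3 PAR-CLIP was measured in 3 biological replicates of HEK293 cells. The authors deposited a table of clusters per replicate. Reads, distinct reads, conversion locations and conversion events are whole counts per the file headers, not normalised. The deposited T-to-C value is a fraction, from 0 to 1, per the file headers. The genome is hg38 per the submitters' processing notes, and all 435 member sequences equalled it. The aligner, cluster caller and annotation are not given in the sources used here.

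Members were matched by gene name. Clusters of all other nuclear genes were the comparison. Transcript spans and introns were those of the canonical GENCODE 44 transcripts, to which 89.5% of gene names matched, 663 of them through older symbols. Scaled reads are reads per 1000000 in gene-annotated clusters. Differences were taken within replicates and tested with exact two-sided sign-flip permutations, adjusted by Benjamini-Hochberg. The scripts were tested on simulated data. Python 3.11.15, pandas 2.3.3, NumPy 2.4.6 and matplotlib 3.10.9 were used.

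The genes named were all 7 members, their nearest gene by scaled reads, each member's leading cluster per replicate, every locus found in all replicates, and a pathway list by its counts with values for its 3 leading genes by scaled reads per kb. The sequence of 1 locus and 1 of the 3 pathway genes are not reported here. Members and lists were chosen with earlier results of these data known. Further sites and introns were picked with their values in view. Alternatives were stricter clusters, another overlap, reads in place of clusters, intron clusters alone and each replicate left out. Leaving out TET3, the gene span, position along the transcript, distance to exons and letter copies were added after seeing the data. Counts without molecular identifiers are not independent molecules. The RNA-seq named in the design was not used here.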

Additional observations from a re-analysis of the deposited data

Results flagged for a closer look

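Clusters on the strand opposite to a member gene lie outside the main measurement. There were 2 within the 7 transcript spans, both in TET2 and both without annotation, 1 in replicate 1 and 1 in replicate 2. They held 14 reads together, and neither overlapped a cluster of another replicate. There is no control library to set them against.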

How the results depend on the processing

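Of 55 recomputed values, 44 were stable, meaning that a difference kept its direction, that a count of genes, loci or pairs stayed within 1.5 times the value given, or that the mean number of member clusters moved by less than the SD between replicates. Member clusters per replicate fell from 145 to 102 with at least 3 distinct reads and to 76 with at least 3 conversion locations, since those settings keep fewer clusters. Loci found in all replicates went from 6 to 3 under each of those settings and to 1 when an overlap of 50% of both clusters was required. With a replicate left out, loci found in both remaining replicates numbered 12 to 21, since fewer replicates must share them. The difference in recurrence from other genes was -4.17 percentage points without TET3, and ran from -3.43 to 3.98 with a replicate left out; the cause was not tested. With a replicate left out, the genes were ordered anew. The neighbouring pairs that kept such an order in both remaining replicates numbered 4 to 5, where fewer replicates must agree. Differences in intron share, conversion and ATCTT share kept their direction under every alternative run for them. The exact test could not pass 0.05 with 3 replicates, so its p-values say nothing about stability. Sites below the limits of the tables, whole-library depth and transcript abundance limit every level given.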

Other observations

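On the same strand as a member, 3 clusters with 25 reads carried another gene name or none. All 3 lay within the TET3 span, 1 in replicate 1 and 2 in replicate 2, and their classes were a lincRNA exon, a lincRNA intron and no annotation. Among all member clusters, 130 of 435 (29.9%) rested on 2 or fewer distinct reads, and 34.1% did in other genes.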
